A study of Homo sapiens with 33 samples.

Results

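The caveolin and cavin genes were followed through 14 days of human gonadal differentiation with and without activation of FOXL2. The family was taken as the genes of the deposited count table named CAV1, CAV2, CAV3, CAVIN1, CAVIN2, CAVIN3 and CAVIN4, which is 7 genes of 58735. It was chosen by the level of CAVIN2, which was higher in IND than in CTRL soon after induction, so the early values of CAVIN2 and the day 6 difference of every member are described here without a test. Bulk RNA was sequenced from H9-DDdCas9VP192-FOXL2 clone 24, a clonal line made from H9 human embryonic stem cells. All cells carried DDdCas9VP192, an inactive Cas9 fused to an activator, and gRNAs to the FOXL2 promoter, so the CTRL groups held the activation system too. All groups went through the same differentiation with growth factors, inhibitors and small molecules in intermediate mesoderm (IM) medium. The CTRL cells received neither compound, and the IND cells received doxycycline (DOX) and trimethoprim (TMP) from day 4, which switch on and stabilise the activator. Day 4 was sampled before induction, and CTRL and IND were sampled on days 6, 8, 10, 12 and 14, giving 11 groups of 3 libraries. The 3 libraries of a group were technical replicates of 1 biological replicate and 1 clone, so the p-values measure the spread between wells, not between independent differentiations. No group received DOX and TMP without the activation of FOXL2, so effects of the compounds and of the gene cannot be told apart.

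Caveolae are small flask-shaped pits of the plasma membrane that buffer membrane tension and hold signalling receptors and lipids. Their coat needs caveolins, hairpin proteins that insert into the membrane, and cavins, cytosolic proteins that assemble around the caveolin scaffold. CAV1 is the main caveolin outside muscle and forms the scaffold together with CAV2, while CAV3 takes its place in striated muscle. CAVIN1 is required for caveolae to form. CAVIN2 helps shape the membrane, CAVIN3 links caveolae to signalling proteins, and CAVIN4 is known mainly from heart and skeletal muscle. Endothelium, smooth muscle, adipocytes and mesothelium are rich in these structures.

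CAVIN2 (ENSG00000168497) lies on the minus strand of chromosome 2, at 191834302 to 191847255 in GRCh38. FOXL2 is a forkhead factor, and because CAVIN2 is the member with the largest early difference, its start region was read for the 6 letters GTAAAC, a core that forkhead proteins are known to bind. They were searched on both strands from 250 bases before to 50 bases after the RefSeq start, after the window had been read. One match was found, 57 bases before that start, and it is shown with its flanks, the 6 letters in capitals (chr2:191847134-191847163, minus strand, RefSeq promoter table, GRCh38.p14).
CAVIN2: gttctcagttctGTAAACttctcctcccac
In the gene models of the count table, which start farther upstream, the same bases fall in the 5′ untranslated part of the first exon. The letters occurred in 7.20% of 35116 windows of this length, and the longer form GTAAACA, absent from the CAVIN2 window, in 3.42%. The windows of CAV1, CAV2, CAV3 and CAVIN4 held neither form, and CAVIN1 and CAVIN3 had no entry. A match is a description of the letters, and no binding was measured. The windows also differed in base composition. The CAVIN2 window was 49.3% G and C with 5 CpG, below the median of 58.7% over all windows, while the first CAV2 window was 82.7% G and C with 43 CpG.

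CAV1 (ENSG00000105974) and CAV2 (ENSG00000105971) are neighbours on the plus strand of chromosome 7, at 116524785 to 116561184 and 116287380 to 116508541, with 16243 bases between them. CAV3 (ENSG00000182533) lies on chromosome 3 at 8733800 to 8841808, CAVIN1 (ENSG00000177469) on chromosome 17 at 42402452 to 42423517, CAVIN3 (ENSG00000170955) on chromosome 11 at 6318946 to 6320647, and CAVIN4 (ENSG00000170681) on chromosome 9 at 100578079 to 100587906. The libraries were not strand-specific, so reads from bases shared with a gene on the other strand cannot be assigned by strand. CAVIN2 shares 7.22% of its exonic bases with AC098617.1, which was at most 0.0685 CPM in any library. CAVIN3 shares 33.3% with AC068733.3, which reached 0.708 CPM, and its counts are the least certain of the family. CAV2 shares 1.10% with AC002066.1, and the other members share none.

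The libraries held 23940837 to 51912815 counted fragments. Levels within a gene are given as CPM, counts scaled to library size with TMM, and levels between genes as the deposited FPKM, which is per gene length. A count of 3 corresponds to 0.0564 to 0.129 CPM and was taken as the floor of detection. FOXL2 was at 147.5 to 577 CPM with induction (15 libraries) and did not exceed 0.388 CPM in the other 18 libraries. Replicate 2 of day 10 IND stood apart from its partners, with a root mean square log2 distance of 1.65 against 0.418 to 0.852 in the 30 libraries outside that group, and with 0.691% mitochondrial counts against 1.14 to 4.28% in all others. Results that rest on it are given with and without it. In bulk RNA, fewer cells of a type and less RNA per cell cannot be told apart.

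Per gene length, CAVIN1 was the most abundant member, with a median of 24.0 FPKM over the 33 libraries and a range of 9.33 to 55.2. The others were far lower. The median was 4.01 FPKM for CAVIN3, 3.07 for CAVIN4, 2.69 for CAV2, 2.65 for CAV1 and 1.95 for CAVIN2. The CAV2 model is long, 6926 bases against 4082 for CAV1, which lowers its FPKM if shorter transcripts are made. CAV3 was at 0 in 22 libraries and above the floor in 5, with 72 counts in all. Of these, 38 lay in replicate 2 of day 10 IND, at 1.64 CPM. CAV3 passed the filter on low counts in no comparison, so 6 of the 7 members were tested.

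**Figure D1:**
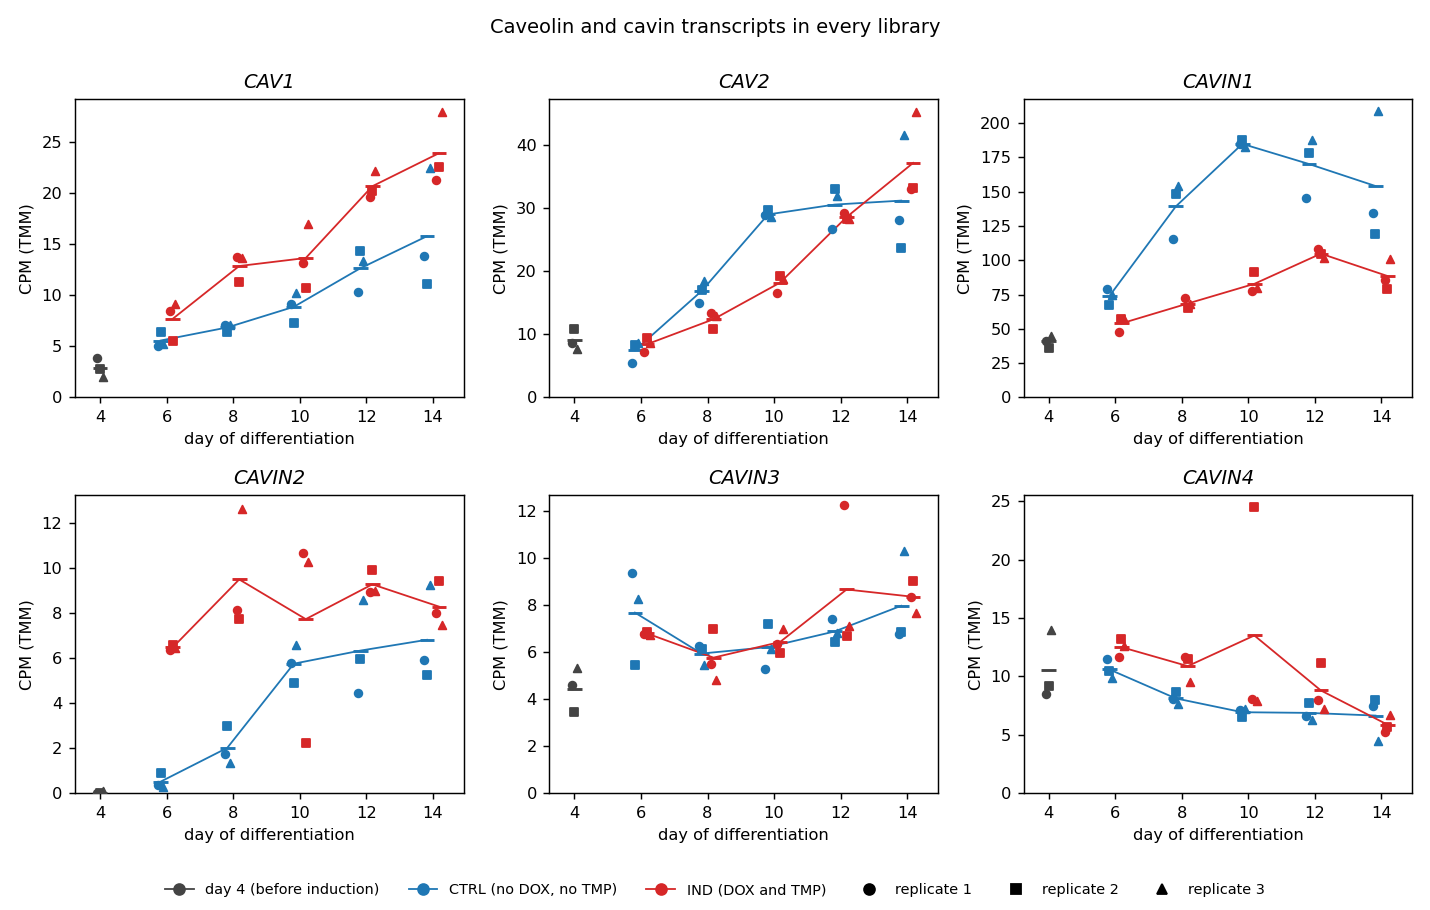
CPM of 6 members (vertical axes, linear) against day of differentiation, with every library as a symbol, group means as bars, and lines joining the means of CTRL (blue) and IND (red), day 4 in grey. The mean of CAVIN1 climbs to 185 CPM in CTRL on day 10 and to no more than 105 CPM in IND, CAV1 is higher in IND on average on every day, and CAVIN2 is near 0 on day 4 and in CTRL catches up only from day 10.

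Most of the family rose as the uninduced cells differentiated. Against day 4, CAV1, CAVIN1 and CAVIN3 were called higher on day 6, which is 3 of the 5 members tested, with 11.0% of all genes called higher. CAVIN2 is left out of the counts of the later days, since it was at the floor on day 4 and passed the filter on low counts only where it was high. Of the other 5 members, 3 were called higher on day 8, beside 18.1% of all genes. The count was 3 of 5 on day 10 (23.1%), 4 of 5 on day 12 (24.4%) and 4 of 5 on day 14 (24.6%). CAVIN4 was called lower on days 10 and 12, when 22.0% and 23.8% of all genes were. The median log2 fold change of these 5 members was 0.78, 0.90, 1.64, 1.75 and 1.79 on the 5 days, against medians between -0.01 and 0.00 over all genes tested. These 5 comparisons share the day 4 libraries. All adjusted p-values are Benjamini-Hochberg values over all genes tested, from the quasi-likelihood test of edgeR.

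CAVIN1, the cavin that caveolae cannot form without, rose in CTRL up to day 10. It was at 41.4, 36.0 and 45.0 CPM on day 4, at 115, 148 and 154 CPM on day 8 and at 184, 188 and 182 CPM on day 10. No day 4 library came near a day 8 or day 10 library. The rise over day 4 was 1.77 ± 0.14 (log2, SE) on day 8 (adjusted p = 3.05e-05) and 2.20 ± 0.10 on day 10 (adjusted p = 1.22e-06), or 4.53-fold. From day 10 the CTRL mean went from 185 CPM to 170 and 154 CPM, with ranges that overlapped.

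CAV1 had a higher mean on each sampled day in CTRL. The means were 2.88 ± 0.96 CPM on day 4 (SD, n = 3), 5.57 ± 0.75 on day 6, 6.85 ± 0.39 on day 8, 8.87 ± 1.46 on day 10, 12.6 ± 2.1 on day 12 and 15.8 ± 5.9 on day 14. Against day 4 this was 1.94-fold on day 6 (log2 0.95 ± 0.28, adjusted p = 0.0319) and 5.49-fold on day 14 (log2 2.46 ± 0.33, adjusted p = 0.000284). The day 6 call was lost when any 1 of the day 6 CTRL libraries was left out, and the calls of days 8 to 14 held in every alternative.

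CAV2, the partner of CAV1 in the scaffold, started later. It was at 8.65, 10.8 and 7.72 CPM on day 4 and at 5.38, 8.32 and 8.65 CPM on day 6 in CTRL, overlapping groups with a log2 difference of -0.28 ± 0.23 (adjusted p = 0.421). On day 8 the CTRL libraries held 14.9, 17.1 and 18.5 CPM, all above day 4 (log2 0.90 ± 0.17, adjusted p = 0.00338). By day 10 CAV2 was at 28.8, 29.6 and 28.5 CPM, 3.20-fold above day 4 (log2 1.70 ± 0.15, adjusted p = 3.22e-05), and the CTRL groups of days 10, 12 and 14 overlapped.

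CAVIN2, the membrane-shaping cavin, was at the floor on day 4, with 0, 0 and 3 counts in the 3 libraries. In CTRL it was at 0.363, 0.904 and 0.288 CPM on day 6 and at 1.73, 2.98 and 1.34 CPM on day 8. The day 8 level was at least 19.5-fold higher than the day 4 floor of 3 counts per library. On day 10 CAVIN2 was at 5.78, 4.88 and 6.60 CPM, at least 55.7-fold above that floor, and on day 14 at 5.93, 5.26 and 9.26 CPM, at least 66.0-fold. No p is given for these differences, since CAVIN2 entered the comparisons only through the CTRL libraries.

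The other cavins moved less. CAVIN3 was at 4.58, 3.43 and 5.30 CPM on day 4 and at 6.76, 6.84 and 10.3 CPM on day 14 in CTRL, 1.79-fold higher (log2 0.84 ± 0.25, adjusted p = 0.0216). It was called on days 6, 12 and 14. The day 6 call was lost without replicate 1 or 2 of day 4 or replicate 1 or 3 of day 6 CTRL, and the day 12 call without replicate 1 or 2 of day 4 or any 1 library of day 12 CTRL. The day 14 call was lost without replicate 1 or 2 of day 4 or replicate 3 of day 14 CTRL. The adjusted p-values then reached 0.195, 0.0986 and 0.0937, while leaving out replicate 3 of day 4 brought calls on days 8 and 10 too (adjusted p = 0.0400 and 0.0175). CAVIN4, the muscle cavin, went the other way, from 8.50, 9.18 and 14.0 CPM on day 4 to 6.62, 7.72 and 6.29 CPM on day 12, without overlap (log2 -0.62 ± 0.22, adjusted p = 0.0425). Leaving out replicate 3 of day 4, its highest library, made that difference -0.34 with an adjusted p of 0.113, and leaving out any 1 library of day 12 CTRL also lost the call. The same held for the day 10 difference of -0.59 ± 0.20 (adjusted p = 0.0425) and the libraries of day 10 CTRL. Both calls were also lost with limma-trend (adjusted p = 0.0606 on day 10 and 0.0617 on day 12) and with all libraries in 1 fit (0.088 and 0.0767).

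The question of induction was addressed by comparing IND with CTRL on the same day. On day 6, 2 days after DOX and TMP were added, CAVIN2 stood out. The CTRL libraries held 0.363, 0.904 and 0.288 CPM and the IND libraries 6.37, 6.60 and 6.46 CPM, from 12, 34 and 12 counts against 238, 280 and 285. Every IND library was above every CTRL library, by 12.5-fold on the means (log2 3.65 ± 0.33). The log2 difference was 4.33 without replicate 2 of CTRL, its highest library, and 1.37 on the log2(FPKM + 1) scale, where the added 1 compresses low levels. This difference chose the family and was not tested. In that comparison 3.66% of all genes were called, and nothing is read from it for the members. The day 6 IND libraries lay within the spread that the CTRL libraries showed on days 10, 12 and 14.

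The other members differed far less on day 6. CAVIN1 was at 79.2, 67.3 and 74.7 CPM in CTRL and at 47.6, 57.0 and 57.1 CPM in IND, lower in every IND library (log2 -0.43 ± 0.11). CAVIN4 was at 11.5, 10.5 and 9.87 CPM in CTRL and at 11.7, 13.2 and 12.6 CPM in IND, with the groups just apart (log2 0.26 ± 0.15). CAV1 had a log2 difference of 0.48 ± 0.21, CAV2 of 0.19 ± 0.20 and CAVIN3 of -0.16 ± 0.20, all with overlapping groups. Leaving out CAVIN2, 2 of 5 members did not overlap between IND and CTRL on day 6, where 19.1% of all genes tested did not. Nothing is read from this count, since the contrast chose the family.

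On day 8 the family split. CAV1 was called higher in IND than in CTRL, and CAV2 and CAVIN1 were called lower. This is 3 of the 5 members tested on that day, with 14.2% of all genes called (7.49% higher and 6.67% lower). CAVIN2 was left out of this count since its early values chose the family. It was at 1.73, 2.98 and 1.34 CPM in CTRL and at 8.14, 7.74 and 12.6 CPM in IND, 4.71-fold higher on the means. Apart from CAVIN2, the groups of CAV1, CAV2, CAVIN1 and CAVIN4 did not overlap and those of CAVIN3 did. Over all genes tested, 33.1% did not overlap.

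Among members that the choice did not use, the day 8 difference of CAV1 was the clearest with IND above CTRL. The CTRL libraries were at 7.08, 6.40 and 7.08 CPM and the IND libraries at 13.7, 11.3 and 13.6 CPM, well apart. The log2 fold change was 0.92 ± 0.14 (adjusted p = 0.00111), or 1.88-fold, and it held in all 12 alternatives with log2 values from 0.63 to 1.00. On day 10 CAV1 was at 9.11, 7.30 and 10.2 CPM in CTRL and at 13.2, 10.7 and 17.0 CPM in IND. No library overlapped there either, but the difference of 0.63 ± 0.23 had an adjusted p of 0.263. Without replicate 2 of day 10 IND it was 0.76 (adjusted p = 0.00441).

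The later days of CAV1 had the same sign and weaker calls. On day 12 the CTRL libraries held 10.3, 14.3 and 13.3 CPM and the IND libraries 19.6, 20.2 and 22.2 CPM, without overlap (log2 0.71 ± 0.16, adjusted p = 0.0368). Leaving out replicate 1, 2 or 3 of CTRL or replicate 2 or 3 of IND lost this call, with adjusted p-values of 0.0749 to 0.125 and log2 values of 0.58 to 0.81. It was also lost with limma-trend on log2(FPKM + 1) and with all 33 libraries in 1 fit (adjusted p = 0.0552 in both). On day 14 CAV1 was at 13.8, 11.1 and 22.5 CPM in CTRL and at 21.3, 22.6 and 27.9 CPM in IND. Replicate 3 of CTRL lay among the IND libraries, and the log2 difference of 0.61 ± 0.25 did not pass (adjusted p = 0.209). It was 0.95 without that library (adjusted p = 0.000433).

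CAVIN1 was lower with induction throughout. On day 8 it was at 115, 148 and 154 CPM in CTRL and at 72.7, 64.8 and 67.8 CPM in IND, so that no IND library reached the lowest CTRL library. The IND minus CTRL difference was -1.01 ± 0.11 (log2, adjusted p = 0.000169), CTRL being 2.03-fold above IND, and it held in all 12 alternatives (-1.15 to -0.94). On day 10 the values were 184, 188 and 182 CPM in CTRL and 77.2, 91.4 and 79.7 CPM in IND, the widest gap of the course (log2 -1.15 ± 0.11, adjusted p = 0.00806). CAVIN1 was the single member called on day 10, where 2.03% of all genes were called (1.18% lower). The day 10 value ranged only from -1.24 to -1.12 over the alternatives. The call was lost when replicate 1, 2 or 3 of CTRL was left out (adjusted p = 0.0545 to 0.081) and when replicate 3 of IND was (adjusted p = 0.0503). With the replicate number as a block in the fit it was lost too (adjusted p = 0.0721). It held without replicate 1 of IND (adjusted p = 0.0474) and without replicate 2 of IND (adjusted p = 5.59e-08). Over all genes, 404 were called on day 10, and 3768 without replicate 2 of IND. The part of that library in the lost calls was not tested.

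On days 12 and 14 the CAVIN1 difference was smaller. The day 12 CTRL libraries were at 145, 178 and 187 CPM and the IND libraries at 108, 104 and 102 CPM, again without overlap (log2 -0.70 ± 0.12, adjusted p = 0.0150). This call was lost without replicate 2 or 3 of CTRL or replicate 2 of IND, with adjusted p-values of 0.0537 to 0.0831. CAV1 and CAVIN1 made 2 of 6 members called on day 12, where 5.42% of all genes were (2.38% higher and 3.04% lower). On day 14 CAVIN1 was at 134, 119 and 209 CPM in CTRL and at 85.5, 78.8 and 101 CPM in IND. All IND libraries were lower, yet the CTRL libraries spread so widely that -0.80 ± 0.23 had an adjusted p of 0.0950.

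Several values of day 14 depended on replicate 3 of CTRL. It had the highest level of its group for CAV1, CAV2 (28.1, 23.7 and 41.6 CPM), CAVIN1, CAVIN2 and CAVIN3 and the lowest for CAVIN4 (7.48, 8.00 and 4.47 CPM). Without it CAVIN1 differed by -0.51 (adjusted p = 0.00456) and CAV2 by 0.52 (adjusted p = 0.0309). With it 0 of 6 members were called by edgeR on day 14, beside 8.43% of all genes, and 2 members had an unadjusted p under 0.05. With that library kept, DESeq2 called 2 members, as did edgeR with no filter on low counts, beside 1975 and 2448 of all genes. The same library had 599 CPM of 6 summed smooth muscle markers against 410 and 352 in its partners, and 365 CPM of 6 neuronal markers against 586 and 637. The part of these differences in the result was not tested.

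The difference of CAV2 was negative on days 8 and 10 and not beyond the spread on days 12 and 14. On day 8 it was at 14.9, 17.1 and 18.5 CPM in CTRL and at 13.4, 10.8 and 13.0 CPM in IND, without overlap and just past the threshold (log2 -0.43 ± 0.13, adjusted p = 0.0460). That call was lost without replicate 1, 2 or 3 of CTRL or replicate 1 or 2 of IND, with adjusted p-values of 0.054 to 0.197. Limma-trend (adjusted p = 0.0876) and 1 fit over all libraries (adjusted p = 0.165) lost it too. On day 10 CTRL was at 28.8, 29.6 and 28.5 CPM and IND at 16.5, 19.3 and 18.7 CPM, a clear gap (log2 -0.67 ± 0.13) with an adjusted p of 0.0592, and of 9.49e-05 without replicate 2 of IND. DESeq2 called it with that library included (adjusted p = 8.04e-05). By day 12 the groups overlapped, at 26.7, 32.9 and 32.0 CPM in CTRL and 29.1, 28.2 and 28.3 CPM in IND (log2 -0.09 ± 0.12, adjusted p = 0.691). On day 14 the IND libraries held 33, 33.2 and 45.2 CPM, with a log2 difference of 0.26 ± 0.22 (adjusted p = 0.578).

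The fitted IND minus CTRL difference of CAV2 thus ran from -0.67 on day 10 to -0.10 on day 12 and 0.25 on day 14 in the fit over the 18 libraries of those days. The test of whether the induction effect differed between the days gave CAV2 an unadjusted p of 0.00522 and an adjusted p of 0.322. No member was called, where 0.138% of 21813 genes were. CAV2 was called with no filter on low counts (adjusted p = 0.0274) and without replicate 3 of day 14 CTRL (adjusted p = 0.0398). For CAV1, with differences of 0.63, 0.71 and 0.60, the adjusted p was 0.974.

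CAVIN2 remained higher in IND on average after day 8, by less. On day 10 CTRL was at 5.78, 4.88 and 6.60 CPM and IND at 10.7, 2.24 and 10.3 CPM. The low IND value is replicate 2, the library that stood apart. With it the log2 difference was 0.44 ± 0.53 (adjusted p = 0.697), and without it 0.86 (adjusted p = 0.00121). On day 12 the CTRL libraries held 4.46, 5.96 and 8.59 CPM and the IND libraries 8.96, 9.92 and 8.97 CPM, apart by a small margin (log2 0.55 ± 0.24, adjusted p = 0.246). On day 14 IND was at 8.01, 9.42 and 7.46 CPM and overlapped CTRL (log2 0.29 ± 0.21, adjusted p = 0.483). The means of the IND groups lay between 6.48 CPM on day 6 and 9.50 CPM on day 8, with 7.74 CPM on day 10, which is 10.5 CPM without replicate 2.

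CAVIN4 and CAVIN3 showed no called difference with induction on days 8 to 14 in the edgeR test of each day. CAVIN4 was at 8.05, 8.64 and 7.67 CPM in day 8 CTRL and at 11.7, 11.5 and 9.48 CPM in day 8 IND, without overlap (log2 0.43 ± 0.14, adjusted p = 0.0584), and it passed without replicate 3 of IND (adjusted p = 0.0136) and with DESeq2 (adjusted p = 0.0416). On day 10 CTRL was at 7.11, 6.51 and 7.20 CPM and IND at 8.07, 24.5 and 7.92 CPM, the high value again being replicate 2. The log2 difference was 0.96 ± 0.47 with that library (adjusted p = 0.396) and 0.20 without it (adjusted p = 0.361). The fit over all libraries called the difference with that library (adjusted p = 0.0224). The same library also held 1995 CPM of 6 summed pluripotency markers against 407 and 487 in its partners, and 46558 CPM of 6 fibroblast and mesenchyme markers against 17517 and 15628. CAVIN3 had log2 differences of -0.03, 0.06, 0.34 and 0.08 on days 8, 10, 12 and 14, with adjusted p-values of 0.473 to 0.928. Its sign turned on each of these days when some single library was left out.

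Ratios between members within a library cancel its depth and scaling, and they are given as descriptions with no test. CAVIN2 as a percent of CAVIN1 (FPKM) was 0.0852 on day 4 and grew in CTRL from 0.864 ± 0.632 on day 6 (SD, n = 3) to 5.24 ± 0.016 on day 14. In IND it was already 14.3 ± 1.34 on day 6 and 16.5 ± 4.8 on day 8. The IND libraries of day 10 had 16.4, 2.91 and 15.3%, replicate 2 alone falling below the CTRL values of 3.72, 3.09 and 4.29%. On day 12 the ratio was 10.5 ± 0.7 in IND against 4.35 ± 0.95 in CTRL, and on day 14 it was 11.3 ± 2.7. Except for that 1 library, every IND library lay above every CTRL library of its day. On days 6 and 8 this ratio holds the CAVIN2 values that chose the family, so nothing is read from its separation there. The 3 CTRL libraries of day 14, which spread widely in level, had 5.24, 5.23 and 5.26%.

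CAV1 as a percent of CAV2 (FPKM) diverged from day 8. In CTRL it was 131 ± 28 on day 6, 69.7 ± 9.4 on day 8 and 52.1 ± 9.5 on day 10. In IND it was 159 ± 53, 177 ± 2.1 and 128 ± 31 on the same days. The groups overlapped on day 6 and did not on days 8 to 14, where even the lowest IND library of day 10 (94.5%) was above the highest CTRL library (60.7%). On day 14 the gap had narrowed to 109, 116 and 105% in IND against 83.3, 79.3 and 91.6% in CTRL.

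**Figure D2:**
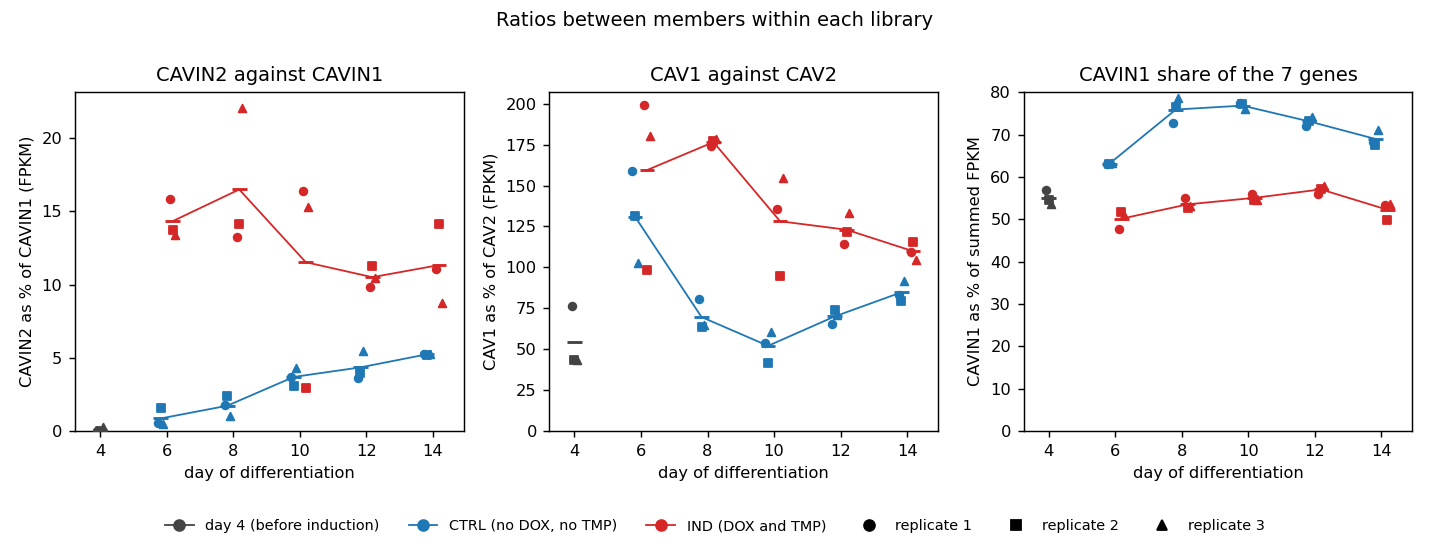
Ratios within each library by day, from FPKM, with CAVIN2 as a percent of CAVIN1, CAV1 as a percent of CAV2, and CAVIN1 as a percent of the summed FPKM of the 7 genes on the vertical axes. Symbols are libraries, bars are means, lines join the means of CTRL (blue) and IND (red), and day 4 is grey. IND and CTRL are apart on days 8 to 14 in all panels except for replicate 2 of day 10 IND in the first.

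The summed FPKM of the 7 genes was lower in IND on days 8, 10 and 12, through CAVIN1. It was 19.2 ± 2.3 on day 4 and reached 62.9 ± 0.5 in day 10 CTRL against 39.3 ± 4.3 in day 10 IND, and the groups overlapped on days 6 and 14. The other 6 genes together, CAVIN2 among them, were at 14.6 ± 0.50 in day 10 CTRL and 17.7 ± 2.2 in day 10 IND. Their sum was higher in every IND library than in any CTRL library on days 6 to 12. On days 6 and 8 it holds the CAVIN2 values that chose the family, so nothing is read from its separation there. CAVIN1 made up 55.1% of the sum of the 7 genes on day 4. In CTRL its share was 63.1% on day 6, 75.9% on day 8, 76.9% on day 10, 73.2% on day 12 and 69.0% on day 14, while in IND the means of the 5 days lay between 50.1 and 57.1%. No IND library reached the share of any CTRL library of its day. This share too holds the early CAVIN2 values, and nothing is read from its separation on days 6 and 8.

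**Figure D3:**
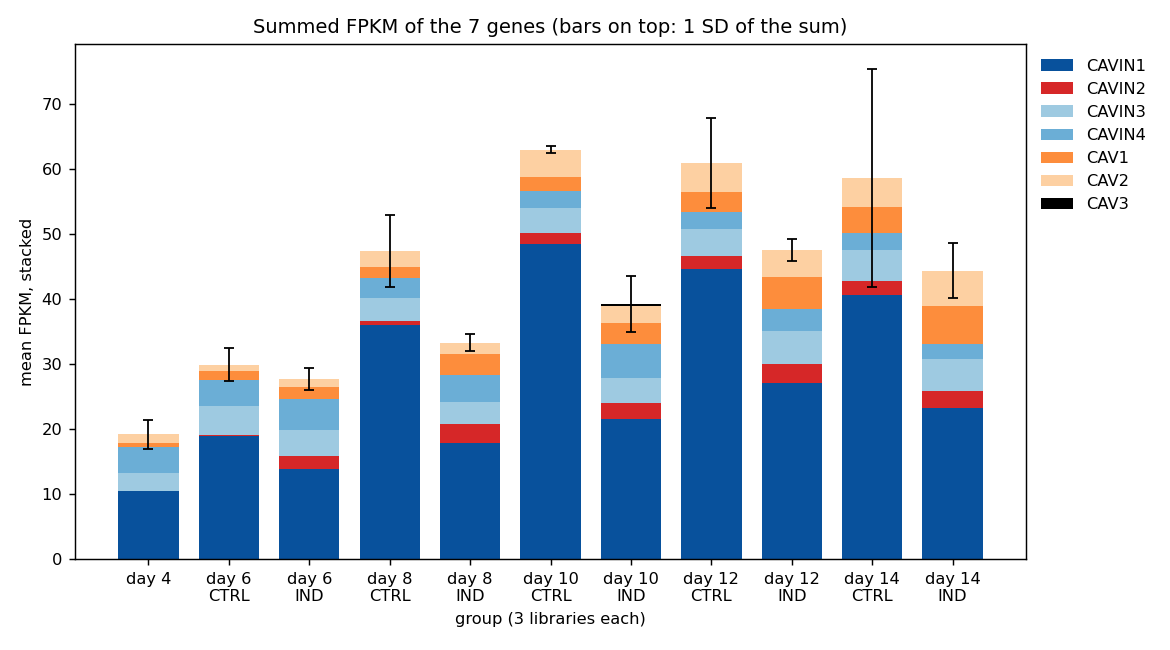
Mean FPKM of the 7 genes stacked for each of the 11 groups (horizontal axis), with bars of 1 SD of the sum over 3 libraries. The sum goes from 19.2 on day 4 to 62.9 in day 10 CTRL, CAVIN1 (dark blue) fills 63.1 to 76.9% of the CTRL columns and 50.1 to 57.1% of the IND columns after day 4, and CAVIN2 (red) is visible from day 6 in IND.

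The order of the 11 groups by mean CPM differed between members. CAV1 and CAV2 were highest in day 14 IND, at 23.9 and 37.1 CPM. CAV1 then followed in day 12 IND at 20.7 and day 14 CTRL at 15.8 CPM, each overlapping its neighbour. CAVIN1 was highest in day 10 CTRL, and its 4 highest groups were CTRL groups of days 8 to 14, the lowest of which did not overlap the next group, day 12 IND at 105 CPM. CAVIN2 was highest in day 8 IND at 9.50 CPM, or in day 10 IND at 10.5 CPM where replicate 2 of that group is left out, and its 8 highest groups overlapped in turn, above day 8 CTRL at 2.02 CPM. CAVIN4 was highest in day 10 IND at 13.5 CPM, which is 8.00 CPM without replicate 2, below day 6 IND at 12.5 CPM, and lowest in day 14 IND at 5.87 CPM. All neighbours in the order of CAVIN3 overlapped.

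Across the 11 group means of log2 CPM the closest pair was CAV1 and CAVIN2, with a Pearson correlation of 0.88. CAV1 and CAV2 had 0.76, CAV2 and CAVIN1 0.76, and CAV1 and CAVIN1 0.45. CAVIN4 had negative values with all other members tested, at -0.85 with CAV2, -0.73 with CAVIN1, -0.47 with CAV1, -0.41 with CAVIN3 and -0.29 with CAVIN2. Without replicate 2 of day 10 IND these were -0.91, -0.73, -0.57, -0.42 and -0.38. These groups share the course of differentiation and the scaling, so the values are descriptions. Among 14792 genes with a mean of at least 1 CPM, those with the pattern most like CAVIN2 over the 11 group means were ZMAT1 (0.97), IGFBP3 (0.97), TAB2 (0.96), MASP1 (0.96) and TCTEX1D1 (0.96). For CAV1 they were UBE2L6 (1.00), DDX60L (0.98), BTN3A1 (0.98), ITM2B (0.98) and SORBS2 (0.98). For CAV2 they were IL6R (0.99), CYGB (0.99), ADAMTS14 (0.99), PRCD (0.99) and PLEKHN1 (0.98). For CAVIN1 they were HAS1, TINAGL1, RASAL1, ODF3B and SLC25A23, all at 0.97, and for CAVIN3, with lower values of 0.91 to 0.93, ZNF426-DT, HIST1H4I, NDN, FAM66C and WBP1L.

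Other genes of caveolae were read from lists written with earlier results of these data known. Of 10 genes for accessory proteins of caveolae, 0 were called higher and 4 lower with induction on day 8. The counts were 0 and 1 on day 10, 0 and 1 on day 12, and 1 and 0 on day 14. Over all genes, 6.67% were called lower on day 8, 1.18% on day 10 and 3.04% on day 12, and 3.21% higher on day 14, so that a single call among 10 genes says nothing about the list. PACSIN1, a membrane-bending protein known mainly from neurons, was called lower on days 8, 10 and 12. Its mean was 29.2 ± 3.2 CPM in CTRL and 11.5 ± 1.3 CPM in IND on day 10 (log2 -1.34 ± 0.16, adjusted p = 0.0137). The 6 neuronal markers summed to 177 to 263 CPM in CTRL and 48.3 to 136 CPM in IND on that day, and their part in the result was not tested. The other genes called lower on day 8 were EHD4 (log2 -0.27), PACSIN3 (log2 -0.39) and ROR1 (log2 -0.89), on that day alone among days 8 to 14. EHD2, an ATPase that holds caveolae at the membrane, was called higher on day 14 alone, at 66.0 ± 1.1 CPM in IND against 43.4 ± 9.1 in CTRL (log2 0.61 ± 0.13, adjusted p = 0.0133).

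Few genes of related lists were called with induction. Of 8 genes for proteins that reside in caveolae or bind caveolin, 1 was called higher (NOS3, the endothelial nitric oxide synthase, log2 0.53) and 1 lower (PRKCA, a protein kinase C, log2 -0.84) on day 8, and none on days 10, 12 and 14. Neither of the 2 flotillin genes, which serve a separate membrane domain, was called with induction on any of those days. Among 8 clathrin coat genes, AP2B1 was called lower on day 8 (log2 -0.27) and none on days 10, 12 and 14. On day 8, 14.2% of all genes were called, and counts this small cannot be set apart from that share. The median log2 difference of each of these 3 lists lay between -0.16 and 0.12 on days 8 to 14, against medians of -0.01 to 0.02 over all genes tested.

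Markers of cell types rich in caveolae were summed for each library. The 10 endothelial markers summed to 147 to 182 CPM in CTRL and 131 to 155 CPM in IND on day 6, when CAVIN2 was 12.5-fold higher in IND. KDR was the 1 endothelial marker called on that day (log2 -0.53), and the median log2 difference of the 10 was 0.15. On day 8 they were at 156 to 179 CPM in CTRL and 219 to 237 CPM in IND, without overlap. Of the 10, 7 were called higher on that day, beside 7.49% of all genes. On day 10 the sums were 107 to 129 CPM in CTRL and 126 to 221 CPM in IND, the lowest being replicate 2. They did not overlap on day 12 (88.7 to 108 against 113 to 117 CPM) or day 14 (79.9 to 109 against 116 to 145 CPM). The median log2 differences of the markers were 0.99, 1.47, 1.15 and 0.66 on days 8 to 14. Called higher were 3 on day 10, 5 on day 12 and 0 on day 14. Over all genes, 2.03% were called in either direction on day 10, and 2.38% and 3.21% higher on days 12 and 14. The 8 markers of coelomic epithelium and mesothelium summed to less in every IND library than in any CTRL library on days 6 to 12. They were at 2347 to 2710 CPM in CTRL and 1438 to 1640 CPM in IND on day 8 and at 3058 to 3176 against 1649 to 2309 CPM on day 10. On day 6 they were at 2142 to 2292 CPM in CTRL and 1328 to 1679 CPM in IND, and on day 12 at 2593 to 3224 against 1890 to 1962 CPM. On day 14 these ranges overlapped, at 2011 to 3165 CPM in CTRL and 1923 to 2192 CPM in IND. The median log2 differences of these markers were -1.36, -1.15, -0.95 and -0.52 on days 8 to 14. On day 6, MSLN was called higher (log2 1.38) and 3 of these markers lower, where 3.66% of all genes were called. The 6 smooth muscle markers summed to 499.6 to 569 CPM in CTRL and 302 to 373 CPM in IND on day 10. The 6 cardiac muscle markers summed to 264 to 288 and 136 to 161 CPM. In each list 1 marker was called on that day, DES and MYL7, both lower. The median log2 differences on days 8 to 14 were -0.16, -0.25, 0.07 and -0.75 for smooth muscle. Those of the cardiac markers tested were -0.78, 0.18, 0.84 and -0.38, so the day 10 sum does not speak for that list. On day 12 both sums overlapped between CTRL and IND. The cardiac sums were also apart on day 6 (286 to 388 against 138 to 170 CPM) and day 8 (209 to 281 against 101 to 110 CPM). TNNT2 and MYL7 were called lower on both days, beside 3.66% and 14.2% of all genes called. The smooth muscle sums overlapped on days 6 and 8. They were apart on day 14 (352 to 599 against 265 to 281 CPM), with MYH11 and DES called lower, beside 8.43% of all genes called. The 6 skeletal muscle markers summed to at most 14.0 CPM, with MYOD1 and MYF5 at or under the floor in all groups but day 14 CTRL. The part of these cell types in the levels of the family was not tested.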

How the data were processed

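Total RNA of 33 libraries was sequenced as non-directional, paired-end poly(A) libraries. The authors trimmed reads with fastp (0.23.2), mapped them to GRCh38 with HISAT2 (2.0.5) and counted them with featureCounts (1.5.0-p3). The authors deposited raw fragment counts per gene, not normalized, and FPKM, which is scaled to gene length and library size. Per the labels the groups were day 4, CTRL and IND. From the counts, edgeR 4.0.16 in R 4.3.3 gave CPM (TMM over all 33 libraries) and quasi-likelihood tests (filterByExpr, TMM, robust fit) on the 6 libraries of each comparison, with a threshold of 0.05 on p-values adjusted over all genes tested. The interaction test took the 18 libraries of days 10 to 14. Correlations used log2 CPM with a prior count of 2. Alternatives were each library left out, the replicate block, 1 fit over all libraries, no filter, limma-trend 3.58.1 on log2(FPKM + 1), RLE size factors, DESeq2 1.42.0, and days 8 to 14 for the interaction. Named genes were the members, the 5 genes most like each of 5 members, and PACSIN1, the accessory gene called most often. EHD2, EHD4, PACSIN3, ROR1, NOS3, PRKCA and AP2B1 were named as lone calls, after their values were seen. The members and lists were chosen with earlier results of these data known. Intervals of counts cover counting error only, and no pair of replicates agreed within sampling noise (chi-squared per gene of 7.82 to 245.8 over 33 pairs). No protein sequences were used here.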

Additional observations from a re-analysis of the deposited data

How the results depend on the processing

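Of 858 values of single members under an alternative to edgeR on the libraries of each comparison, 766 kept their direction and side of the threshold. Day 6 of IND against CTRL chose the family, so its counts support nothing: 2 members, CAVIN2 among them, lay past the threshold where 3.66% of all genes did, 1 with all 33 libraries in 1 fit, 1 with limma-trend on log2(FPKM + 1), and 1 to 2 with a library left out. With all libraries in 1 fit, 3 members were called on day 10, 1 on day 12 and 1 on day 14. Over all genes that fit called 3325, 1556 and 861 on these days. Limma-trend called 1 on day 12, beside 741 of all genes. DESeq2 called 2 on day 10 and 2 on day 14, and no filter on low counts gave 2 on day 14 and 1 in the interaction test. Over all genes these were 1787 and 1975 with DESeq2 and 2448 and 1116 with no filter. Leaving out 1 library gave 2 to 4 members on day 8 and 0 to 4 on day 10. It gave 0 to 2 on day 12, 0 to 3 on day 14 and 0 to 1 for the interaction. Over all genes it gave 1321 to 4732 on day 8 and 11 to 3768 on day 10. The ranges were 417 to 1979 on day 12 and 905 to 1987 on day 14. Against day 4, leaving out 1 library gave 1 to 3 members on day 6, beside 2312 to 5673 of all genes. No result about the family is read from these counts. CAVIN2 was left out of the counts against day 4 on days 8 to 14, a choice made after seeing the data. This gave 3, 4, 5 and 4 of 5 members called in either direction, beside 6946, 8613, 9279 and 8886 of all genes. The 4 members of day 10 came without replicate 2 of IND, beside 3768 of all genes. The 3 members of day 14 came without replicate 3 of CTRL, beside 1987 of all genes. The cause was not tested for any of these changes.

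Signs turned for CAVIN3 and CAVIN4 alone, in differences that were not called. With a library left out, IND minus CTRL of CAVIN3 ranged from -0.35 to 0.011 on day 6, from -0.20 to 0.080 on day 8, from -0.065 to 0.16 on day 10, from -0.0016 to 0.50 on day 12 and from -0.033 to 0.30 on day 14. It was also below 0 without IND replicate 3 on day 10 (-0.028) and without CTRL replicate 2 on day 14 (-0.021). Day 6 CTRL minus day 4 of CAVIN4 ranged from -0.13 to 0.24 with a library left out, at -0.091 without day 4 replicate 2 and -0.053 without CTRL replicate 1, and was -0.0017 with DESeq2 and -0.0038 with RLE size factors.

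The replicate numbers did not pair the libraries. Over 15 same-numbered pairs of IND and CTRL libraries the deviations from the group means correlated at -0.107 to 0.0781, and over 15 pairs of CTRL and day 4 at -0.109 to 0.138. The library of the partner group that correlated best had the same number for 11 of 30 and 10 of 30 libraries. With the replicate block 0 members were called on day 10 and 2 on day 14, CAV1 (log2 0.65, adjusted p = 0.0108) and CAVIN1 (log2 -0.76, adjusted p = 0.000351), and CAV2 on day 8 had an adjusted p of 0.0575. CAVIN4 against day 4 had 0.0678 on day 10 and 0.0667 on day 12. Over all genes the block gave 15 called between IND and CTRL on day 10 and 1948 on day 14.

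Over all genes, 404 were called on day 10, 1787 with DESeq2, 3325 with all libraries in 1 fit, 15 with the block and 11 to 3768 with a library left out. Day 6 had 700 (359 with limma-trend, 464 with all libraries, 1209 with no filter), day 8 2752 (1599 with all libraries), day 12 1080 (1956 with DESeq2, 1878 with no filter) and day 14 1606 (861 with all libraries, 2448 with no filter). The interaction had 30, against 289 with DESeq2, 1116 with no filter, 6 with limma-trend, 75 with all libraries and 216 over days 8 to 14. Depth limits CAV3 and the day 4 level of CAVIN2, which lie at or under 3 counts in most libraries.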
